A study of Mus musculus with 3 samples.

Results

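Cluster 3 is a group of inhibitory-neuron-like nuclei of the mouse olfactory bulb (OB), named by transcripts of Tpbg, Syt10, Crhbp and Chrm2. Its members are the nuclei that the authors' deposited clustering assigns to cluster 3, which are 2288 of the 31703 retained nuclei and of the 20745 nuclei in the 8 clusters treated here as inhibitory (0, 1, 3, 6, 7, 8, 10 and 12). Mouse 1 gave 441 of them, mouse 2 gave 1534 and mouse 3 gave 313. The nuclei came from 3 adult male C57Bl/6 mice, each of which had received the retrograde virus retroAAV-CAG-H2B-GFP in both the piriform cortex (PCx) and the anterior olfactory nucleus (AON). Nuclei of the dissected bulb were sorted for the viral nuclear GFP to enrich projection neurons, and 1 droplet library per mouse was made with a 3′ kit. There was no uninjected or unsorted group, so every value below describes nuclei that passed the GFP gate. The promoter on the virus is active in most cell types, and the sort therefore does not define a neuron type.

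GABAergic interneurons outnumber projection neurons in the OB. Most are axonless granule cells and periglomerular cells, which arise from progenitors that migrate into the bulb throughout life, and they inhibit mitral and tufted cells through dendritic synapses. Tpbg encodes trophoblast glycoprotein, a leucine-rich repeat membrane protein known from a subset of granule cells, where it shapes dendritic branching in response to odour input. Syt10 encodes a synaptotagmin, a vesicle calcium sensor known in OB neurons for its part in the regulated release of insulin-like growth factor. Crhbp encodes a secreted protein that binds corticotropin-releasing hormone, and Chrm2 an inhibitory G protein-coupled muscarinic acetylcholine receptor.

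The promoters of these 4 genes are shown because their transcripts name the cluster. Each sequence runs from 250 bases before to 50 bases after a RefSeq start in GRCm38.p6, 5′ to 3′ on the strand of the gene. Capitals mark TATAAA. Tpbg has 2 listed starts, at chr9:85842130-85842429 (plus strand, 46.0% G and C) and chr9:85842602-85842901 (plus strand, 65.7%). Syt10 lies at chr15:89841811-89842110 (minus strand, 70.7%), Crhbp at chr13:95444782-95445081 (minus strand, 48.0%) and Chrm2 at chr6:36387834-36388133 (plus strand, 52.7%). The median of all listed mouse promoters was 52.7%.
Tpbg, first start: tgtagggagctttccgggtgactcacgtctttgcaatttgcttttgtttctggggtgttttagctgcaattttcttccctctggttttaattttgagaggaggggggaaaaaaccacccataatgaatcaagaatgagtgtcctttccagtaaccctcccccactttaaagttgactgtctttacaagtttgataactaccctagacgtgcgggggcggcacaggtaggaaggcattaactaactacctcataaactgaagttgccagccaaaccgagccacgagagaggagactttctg
Tpbg, second start: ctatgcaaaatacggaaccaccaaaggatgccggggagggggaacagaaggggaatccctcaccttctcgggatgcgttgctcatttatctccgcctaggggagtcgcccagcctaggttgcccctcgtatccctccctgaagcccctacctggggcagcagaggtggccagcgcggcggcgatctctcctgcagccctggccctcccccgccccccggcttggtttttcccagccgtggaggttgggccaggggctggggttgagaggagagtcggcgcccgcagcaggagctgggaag
Syt10: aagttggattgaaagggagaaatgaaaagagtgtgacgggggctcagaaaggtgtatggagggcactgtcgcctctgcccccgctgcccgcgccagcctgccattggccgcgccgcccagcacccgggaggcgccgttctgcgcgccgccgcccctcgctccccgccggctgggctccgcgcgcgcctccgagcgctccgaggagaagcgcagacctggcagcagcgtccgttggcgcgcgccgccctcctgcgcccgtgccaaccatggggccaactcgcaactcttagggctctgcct
Crhbp: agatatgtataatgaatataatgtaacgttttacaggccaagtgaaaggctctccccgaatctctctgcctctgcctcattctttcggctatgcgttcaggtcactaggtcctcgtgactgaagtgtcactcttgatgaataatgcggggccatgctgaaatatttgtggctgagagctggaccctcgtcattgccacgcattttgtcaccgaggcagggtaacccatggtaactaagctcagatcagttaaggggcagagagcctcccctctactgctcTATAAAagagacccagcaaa
Chrm2: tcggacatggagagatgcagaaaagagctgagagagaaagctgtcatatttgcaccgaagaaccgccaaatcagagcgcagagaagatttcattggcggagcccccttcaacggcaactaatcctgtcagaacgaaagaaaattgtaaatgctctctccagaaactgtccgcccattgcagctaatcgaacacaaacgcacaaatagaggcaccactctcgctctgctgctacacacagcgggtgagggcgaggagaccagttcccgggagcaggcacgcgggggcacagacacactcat
The Crhbp window was the only one of these 5 with a TATAAA match. It begins at position 31, counted from the RefSeq start, and so lies after the start and not before it. Syt10 had 35 CpG dinucleotides in its 300 bases, Chrm2 16, Crhbp 9, and the 2 Tpbg windows 7 and 17, beside a median of 7 over all promoters.

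The 3 libraries held 5845, 21105 and 4753 retained nuclei and 58526996 to 213891496 UMIs in those nuclei. A UMI is a molecular barcode that marks 1 captured RNA molecule. Pairs of libraries shared 8 to 39 cell barcodes. In each pair 1 or 2 of the barcodes of cluster 3 were also in the other library, and none was in cluster 3 in both. Of the retained nuclei, cluster 3 held 7.54% in mouse 1, with a 95% exact binomial interval of 6.88 to 8.25%. It held 7.27% (6.92 to 7.63%) in mouse 2, and 6.59% (5.90 to 7.33%) in mouse 3, which gives a mean of 7.13% ± 0.494 (SD, n = 3). Of the nuclei in the 8 inhibitory clusters it held between 10.7% (mouse 2) and 12% (mouse 1), with a mean of 11.4% ± 0.664. These shares are of sorted nuclei and the intervals cover counting error only. Levels are given as CPM, the UMIs of a gene per 1000000 UMIs of the summed nuclei. Transcripts of the sort reporter, listed as eGFP, were at 75.0, 170 and 192 CPM in cluster 3, against a mean of 106 in cluster 0 and of 26.9 to 49.2 in the other 6, and the part of the gate in the shares was not tested.

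Nuclei of cluster 3 were deeper than the average of the other inhibitory clusters and close to cluster 6 in depth. Their median UMI number was 8928, 9522 and 12482 in mice 1 to 3, which was 1.43 ± 0.113 times the mean of the medians of the 7 other inhibitory clusters in the same mouse. Their median number of detected genes was 2899, 3032.5 and 3326, or 1.24 ± 0.0760 times that of the others. Cluster 6 had a higher median UMI number than cluster 3 in mice 1 and 2 (9366 and 9583) and a lower one in mouse 3 (10466). Averaged over mice, the median UMI number was 9805 in cluster 6 and 10311 in cluster 3, and the median number of genes 3177 and 3086. Against the mean of the others, both measures were higher in 3 of 3 mice, with p = 0.25 in each exact two-sided sign-flip test over mice, the smallest value that 3 mice allow. The median percent of mitochondrial UMIs was 0.0978 in cluster 3 and 0.0924 in the others (exact sign-flip p = 0.75).

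The label was first held against the markers. UMIs were summed per mouse and cluster. Tpbg was at 277, 181 and 207 CPM in cluster 3 of mice 1 to 3. In the mean clusters 6 and 0 followed, at 26.1, 25.9 and 33.5 CPM and at 33.8, 26.8 and 22.2 CPM, without a fixed order between them. In mouse 2 cluster 7 was next, at 27.3 CPM. No mouse's value in the 7 other clusters compared came near those of cluster 3. Cluster 21, outside the clusters compared here, had Tpbg at 47.5, 67.8 and 93.7 CPM, above clusters 6 and 0 but below cluster 3. Chrm2 was at 1625, 1391 and 1581 CPM, again with cluster 6 next, at 715, 801 and 668 CPM. Syt10 and Crhbp were also highest in cluster 3 in each mouse, with cluster 0 next. Syt10 was at 464, 518 and 635 CPM in cluster 3 and at 235, 250 and 371 in cluster 0. Crhbp was at 152, 77.6 and 82.8 CPM in cluster 3 and at 43.7, 27.3 and 39.9 in cluster 0. Each mouse's value of each of the 4 markers in cluster 3 thus lay above all 7 other clusters of that mouse. Since the clusters were formed on these same counts and the markers were read from them, this describes the cluster and is not a test.

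**Figure D1:**
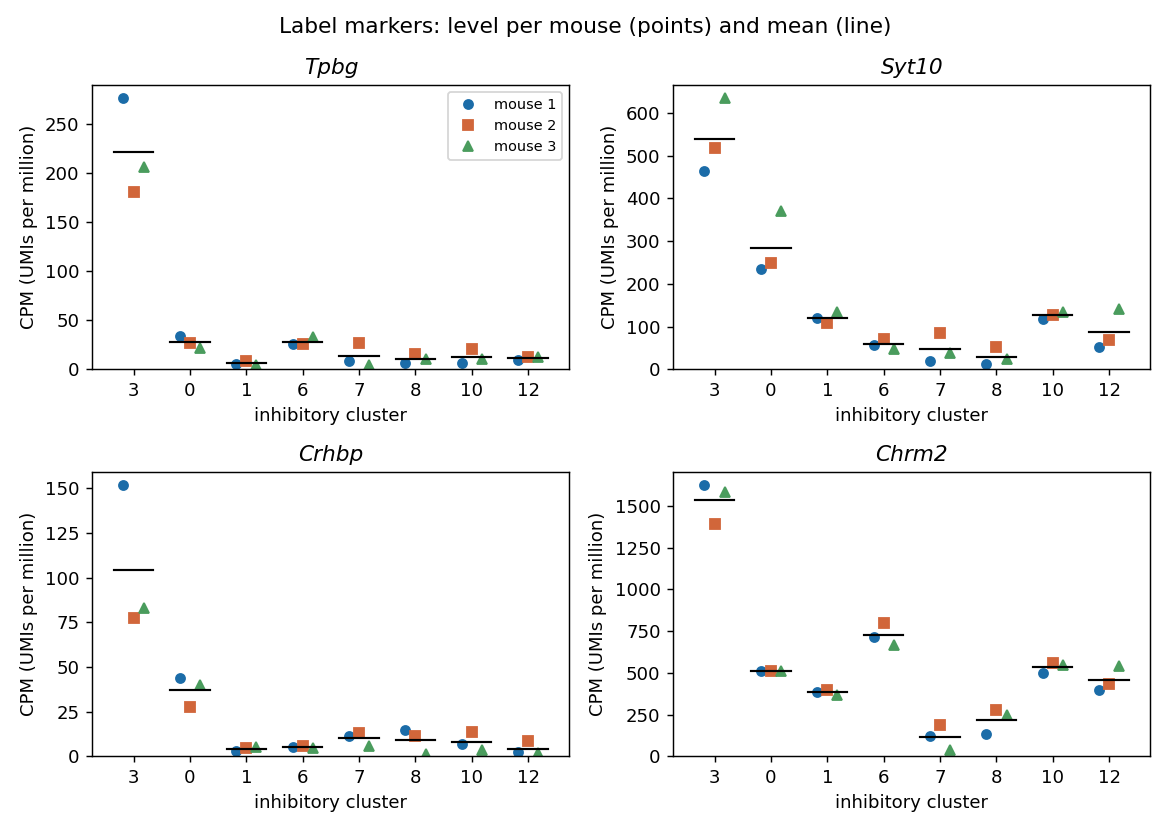
CPM of Tpbg, Syt10, Crhbp and Chrm2 (y axes, linear from 0) in the 8 inhibitory clusters (x axes), with 1 point per mouse and a line at the mean of 3 mice. The points of cluster 3 lie above those of every other cluster in each mouse, with cluster 0 next for Syt10 (mean 285 CPM) and Crhbp (37.0 CPM), cluster 6 next for Chrm2 (728 CPM), and clusters 6 (28.5 CPM) and 0 (27.6 CPM) alike for Tpbg.

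Because depth differed between clusters, shares of nuclei with a UMI were compared after thinning each nucleus to 3000 UMIs. This left out 2, 10 and 0 nuclei of cluster 3 in mice 1 to 3. Of cluster 9, used below as background, it left out 53 of 188, 100 of 757 and 8 of 191 nuclei. Of cluster 20 it left out 14 of 19, 33 of 103 and 8 of 24. The shares of these 2 clusters thus describe their deeper nuclei. Chrm2 was then seen in 80.9% ± 1.30 of cluster 3 nuclei (mean and SD of 3 mice), Syt10 in 64.5% ± 4.16, Tpbg in 40.9% ± 3.42 and Crhbp in 19.5% ± 5.04. Without thinning the shares were 93.9%, 84.8%, 65.7% and 35.5%. In cluster 9, whose nuclei carry astrocyte markers (7 genes, 5278 CPM in sum) and should lack these genes, the thinned shares were 9.77%, 9.35%, 4.44% and 2.10%. In the few nuclei of cluster 20, with microglia markers, the means were 14.3%, 8.75%, 7.62% and 0%, and the highest mouse reached 24.3% for Chrm2 (17 of 70 nuclei). Shares at these levels are read as background. In cluster 0 they were 52.0%, 43.5%, 6.46% and 8.01%. For Syt10, Chrm2 and Crhbp these lie above the means of both glial clusters. For Tpbg the share in cluster 0 (7.51%, 6.84% and 5.04% in mice 1 to 3) was above that of cluster 9 (3.70%, 5.78% and 3.83%) in each mouse, and the mean of cluster 20 rests on 1 of 5 nuclei in mouse 1, 2 of 70 in mouse 2 and 0 of 16 in mouse 3. At least 2 of the 4 markers were seen together in 74.0% ± 2.65 of cluster 3 nuclei and in 31.7% ± 2.59 of cluster 0 nuclei, and at least 3 in 30.5% ± 3.46 and 4.44% ± 0.565.

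**Figure D2:**
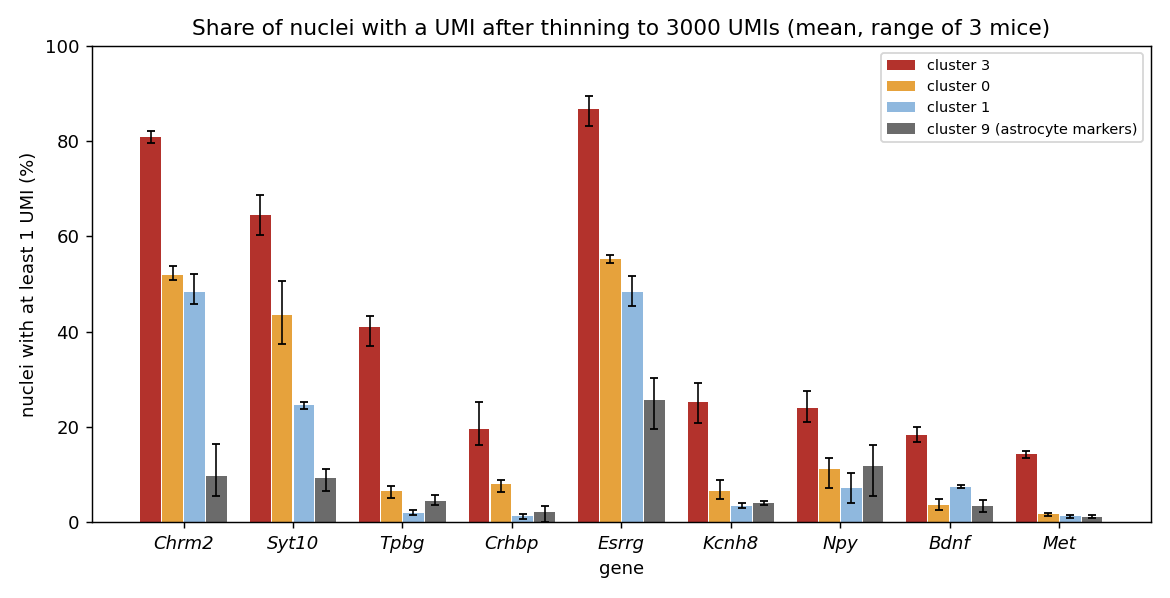
Percent of nuclei with at least 1 UMI of each gene after thinning to 3000 UMIs, as bars at the mean of 3 mice with the lowest and highest mouse as whiskers. Cluster 3 has the highest bar for each of the 9 genes, and cluster 9, with astrocyte markers, shows the background, which for Npy (11.7%) is as high as in cluster 0 (11.2%).

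The cluster carried the transcripts of GABAergic neurons. Gad1, which makes GABA, was at 1189 ± 251 CPM, Gad2 at 364 ± 99.3, and the vesicular GABA transporter gene Slc32a1 at 262. Meis2, a transcription factor of OB interneurons, was at 3616 ± 56.9 CPM. The 10 genes of the inhibitory list summed to 6239 CPM, within the range of the other 7 clusters (4447 to 6480) and above cluster 9 (2326). None of the 10 was counted as higher or lower than in the other inhibitory clusters by the rule given below. The vesicular glutamate transporter gene Slc17a7 was at 14.2, 18.8 and 15.1 CPM, and the whole projection neuron list at 89.6 CPM, under the 94.5 of cluster 0. Lists of astrocytes (37.3 CPM), oligodendrocytes (58.3), microglia (57.0) and vessels (12.1) were at or under their sums in cluster 0 (73.1, 69.2, 57.7 and 19.2). A narrower name did not follow from the lists. The granule cell list summed to 5463 CPM, beside 6272 in cluster 0, and had 1 higher gene of 8 tested, the label marker Tpbg, and 1 lower, Camk4, with a median log2 ratio of −0.02. Of its genes Synpr (576 CPM), Tshz1 (384), Etv1 (292) and Camk2a (284) were present, while Camk4 was at 30.4 CPM against 163 in the mean of the 7 other clusters and Penk at 59.7 against 105. Of the deep short-axon cell genes Npy and Chrm2 were high, but Chrna2 (0.0850 CPM), Sst (1.96) and Vip (5.85) were near 0. Crh (1.42 CPM) and Pvalb (1.18), of external plexiform layer interneurons, were likewise near 0. The periglomerular list had 1 lower gene of 8 tested (Calb2), the immature neuron list 1 of 7 (Cd24a) and the list of calcium-binding proteins 1 of 20 (Calb2), with none higher in these lists. Calb2 is the same gene in both of its lists. Over all tested genes 1.05% were higher and 2.24% lower, and these lists, like the granule cell list, were not tested as sets.

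For each of 12897 genes with a mean of at least 5 CPM in at least 1 of the 8 clusters, the log2 ratio of cluster 3 to the mean of the 7 others was taken within each mouse, with 5 CPM added to both, which understates the ratio of low genes. A gene was counted as higher when the mean ratio was above 1 and cluster 3 lay above each of the 7 clusters in each of 3 mice, and as lower by the mirror image. By this count 135 genes were higher (1.05% of those tested) and 289 lower (2.24%). Without the limit on size, 348 genes (2.7%) lay above and 682 (5.29%) below every other cluster in each mouse. With TMM scaling, which moved the median log2 ratio of all genes from −0.12 to −0.02, the counts were 173 and 239. When the other clusters were pooled by their UMIs rather than averaged with equal weight, the higher genes numbered 81. The reporter eGFP is 1 of the 135, though in mouse 1 it was at 75.0 CPM in cluster 3 and 74.0 in cluster 0. Protein-coding genes made up 119 of the higher and 264 of the lower genes. Cluster 0 was next highest for 88 of the 135, and 28 of the 135 were at least 2-fold above the next cluster. In the 424 counted genes the ratio nearest 0 was that of mouse 2 in 295, of mouse 1 in 80 and of mouse 3 in 49. Mouse 2 also had the most inhibitory-list UMIs in glial nuclei, 2215 CPM in the oligodendrocyte-marker cluster 16 against 907 and 329 in mice 1 and 3, and the part of free RNA in its smaller ratios was not tested.

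**Figure D3:**
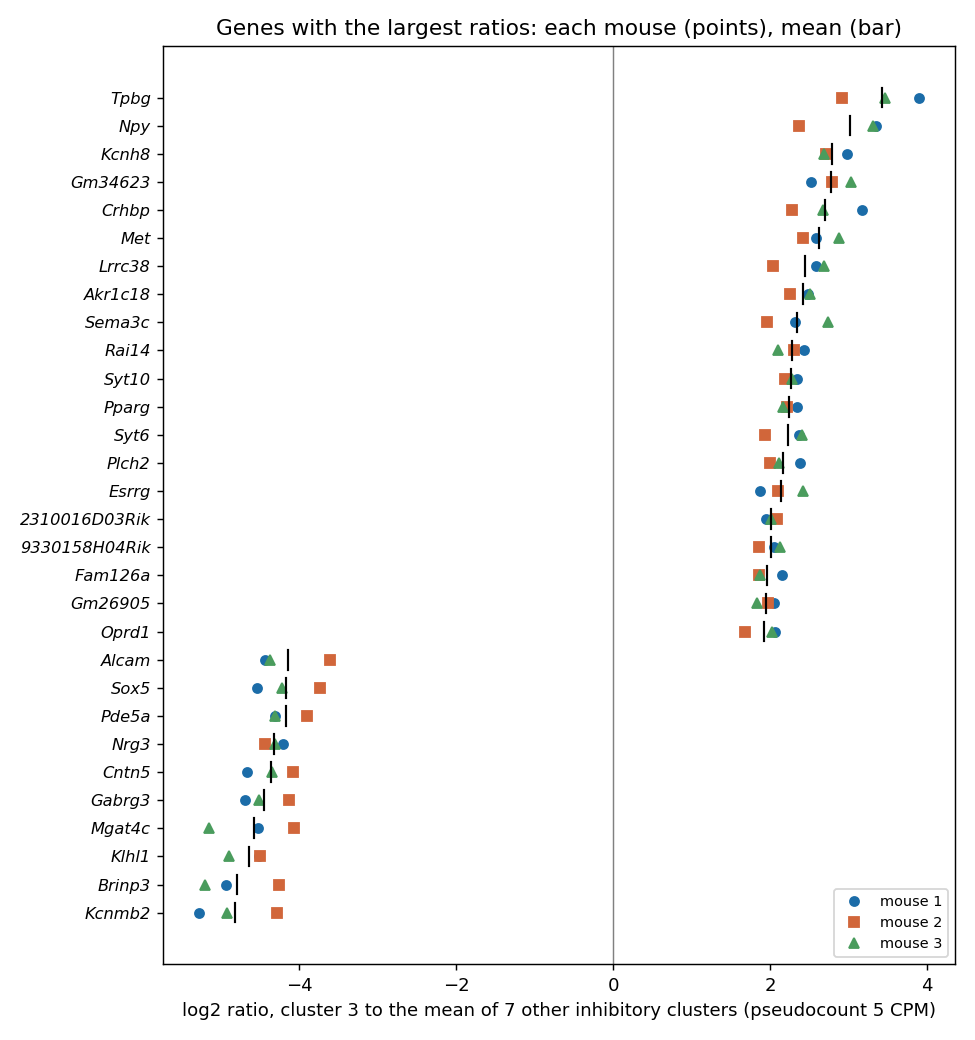
Log2 ratio (x axis, pseudocount 5 CPM) of cluster 3 to the mean of 7 other inhibitory clusters for the 20 genes with the largest and the 10 with the lowest mean ratios among those counted at 20 CPM or more (y axis), with 1 point per mouse and a bar at the mean. The points of the first group all lie right of 1 and those of the second all lie left of −3, with Tpbg (3.43) at one end and Kcnmb2 (−4.82) at the other.

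The gene lists described above and below are to be read against all tested genes, of which 1.05% were higher and 2.24% lower, with a median ratio of −0.12. They were not tested as sets.

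The size of several ratios depended on the reference, though no direction did. With the other clusters pooled by their UMIs, the ratio of Syt10 was 1.68, that of Pparg 1.63 and that of Rai14 1.59, beside 2.27, 2.24 and 2.28 with equal weights. On the lower side Kcnmb2 went from −4.82 to −3.57, Brinp3 from −4.79 to −3.66, Klhl1 from −4.63 to −3.94, Mgat4c from −4.58 to −3.73, Pde5a from −4.17 to −3.15, Sox5 from −4.16 to −3.01 and Alcam from −4.14 to −3.19, whereas Gabrg3 went from −4.44 to −4.22 and was then the lowest of the 10. Leaving out clusters 10 and 12, in which some of these genes are high, gave −3.32 for Brinp3, −3.45 for Mgat4c and −3.42 for Alcam. A pseudocount of 1 CPM widened the ratios of low genes, to 3.45 for Gm34623, 3.40 for Lrrc38, 2.98 for 2310016D03Rik, −5.91 for Kcnmb2, −5.54 for Pde5a and −4.85 for Alcam.

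Among secreted signals and peptides, Npy, Crhbp, Scg2 and Bdnf were higher. Npy, which encodes neuropeptide Y, was at 753, 260 and 247 CPM in cluster 3, with a log2 ratio of 3.01 ± 0.55 (SD, n = 3 here and below). Mouse 1 stood far above the other mice. In the mean the next inhibitory cluster was 8, at 169, 62.6 and 14.0 CPM, also with mouse 1 at the top. It did not overlap cluster 3, and in mouse 3 cluster 0 lay above it, at 34.9 CPM. Cluster 21, outside the clusters compared here, had an inhibitory-list sum of 4665 CPM. Its Npy was at 1188, 119 and 112 CPM. Npy was far higher in cluster 11, where the astrocyte list summed to 1556 CPM against 37.3 in cluster 3, at 5625, 2392 and 2922 CPM, also with mouse 1 at the top. Npy was seen in 23.9% of thinned cluster 3 nuclei against 11.7% in cluster 9, so that a share up to the latter is read as background. Bdnf, a neurotrophin whose transcription follows activity, was at 86.2, 83.7 and 89.9 CPM, with a ratio of 1.89 ± 0.25, and cluster 8 followed at 61.6, 49.9 and 54.9. Scg2, which encodes a granin of dense-core vesicles, was at 984, 540 and 604 CPM (1.52 ± 0.42), whereas Chga, another granin gene, was counted as lower (23.9 CPM against 55.6). Of 21 tested neuropeptide genes 2 were higher and 1 was lower, and the median ratio of the list was −0.78 beside −0.12 over all genes.

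The activity-induced list, which holds Npas4 and its relatives, had 17 tested members, of which Bdnf alone was counted as higher and none as lower. Its median ratio was 0.24, beside −0.12 over all genes, and 12 of the 17 ratios were positive. Egr1 was at 185 CPM (ratio 0.86 ± 0.27), beside 201 CPM in cluster 0. In the mean Arc was at 45.8, Fos at 50.9 and Npas4 at 18.9 CPM, beside 56.0, 63.1 and 30.1 CPM in cluster 0. In mouse 1 Arc was higher in cluster 3 than in cluster 0 (45.2 against 39.8 CPM). The order of the means was the other way round for Bdnf, at 86.6 CPM in cluster 3 and 17.1 in cluster 0. The corticotropin-releasing hormone list had 3 tested members, of which Crhbp was higher. Crhr1, the receptor of the hormone, was at 120 CPM (ratio 1.22 ± 0.20) but equal in the mean to cluster 6 and hence not counted. Crh itself was at 1.42 CPM. None of the 11 tested insulin-like growth factor pathway genes was counted in either direction, and their median ratio was −0.63. Igf1 was at 4.53 CPM and Igf1r at 114 CPM, against 12.4 and 187 in the other clusters.

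Of the 3 tested muscarinic receptor genes, Chrm2 was higher (1.85 ± 0.22) and Chrm3, a receptor coupled to calcium release, was lower (−2.74 ± 0.42). Chrm3 was at 142, 120 and 86.3 CPM in cluster 3, below cluster 1 (157, 214 and 223) and far below cluster 12 (mean 2204). Chrm1 was at 37.1 CPM and the other clusters at 38.6. Chrm4 (1.32 CPM) did not reach the level for testing, and Chrm5 had no UMI in these clusters. None of the 4 tested nicotinic receptor genes was counted, and of 11 tested partners of muscarinic signalling only Kcnj9, a potassium channel gene, was lower. The histamine receptor gene Hrh2 was higher, at 49.6, 66.3 and 71.3 CPM (1.47 ± 0.18), though cluster 12 followed closely at 48.1, 38.0 and 62.0. Htr1f, a serotonin receptor gene, was lower at 24.9, 54.2 and 42.0 CPM (−3.91 ± 0.41), against 103, 147 and 77.0 in the next lowest cluster, 8. Htr7 and Adrb1 were also lower, at 0.772 and 0.861 CPM. The 17 tested monoamine receptors thus had 1 higher and 3 lower members and a median ratio of −0.69, beside 1.05%, 2.24% and −0.12 over all genes. Of 20 tested neuropeptide receptor genes, Oprd1, the delta opioid receptor (88.7, 71.5 and 76.7 CPM, 1.92 ± 0.21), and Vipr2, which binds vasoactive intestinal peptide (232, 292 and 278 CPM, 1.73 ± 0.14), were higher and Prokr2 was lower, with a list median of −0.35. For both higher genes cluster 0 was next, at means of 54.8 and 193 CPM, and with the other clusters pooled by their UMIs the ratio of Oprd1 was 1.23.

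The synaptotagmin list had 3 higher genes among 15 tested, Syt6, Syt12 and the label marker Syt10, and 1 lower, Syt16, with a median ratio of −0.19 beside −0.12 over all genes (1.05% higher, 2.24% lower). Syt6 varied little over mice, at 823, 788 and 808 CPM (2.23 ± 0.26), and cluster 0 was at 349, 370 and 371. Syt12 was a low gene, at 29.5 CPM with a ratio of 1.04 ± 0.15, just over the limit. Syt16 was at 13.6 CPM against 66.8 in the others (−1.97 ± 0.49). Syt1, the fast calcium sensor of transmitter release, was at 4426 CPM with a ratio of 0.73 ± 0.06. It lay above each other cluster in each mouse but under the limit of 1, and so was not counted.

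Potassium channel genes gave 4 higher and 7 lower members of 48 tested, and a median ratio of −0.38, beside 1.05% higher, 2.24% lower and a median of −0.12 over all genes. The ether-a-go-go relatives Kcnh8 and Kcnh7 were both higher. Kcnh8 was at 285, 203 and 234 CPM (2.79 ± 0.16), with cluster 10 next at 55.1, 66.8 and 77.3. Kcnh7 was at 3398, 3615 and 3666 CPM (1.62 ± 0.04), with cluster 0 next at 1929, 1785 and 2004. Kcna4 (185 CPM, 1.33 ± 0.11) and Kcnq5, an M-current subunit (2076 CPM, 1.26 ± 0.14), were the other higher genes, and Kcnq5 was nearly as high in cluster 0 (1904 CPM). Among the lower genes Kcnc2, which encodes a fast delayed rectifier, was at 118, 74.4 and 68.9 CPM (−3.03 ± 0.30), below cluster 1 at 178, 165 and 230. Kcna2, Kcnt2 (4.22 CPM), Kcnip3 (5.73), Kcnj9 (12.2), Kcna6 (0.627) and Kcng2 (0.811) were lower as well. The subunit gene Kcnmb2, which is outside that list, had a ratio of −4.82 ± 0.50. It was at 1.22, 4.40 and 2.69 CPM in cluster 3 and at a mean of 213 CPM in the 7 others, but cluster 0 was nearly as low (4.45 CPM).

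Of the sodium and calcium channel genes, Scn1a was higher (319, 350 and 343 CPM, 1.09 ± 0.04). The leak channel gene Nalcn (117 CPM, −1.35 ± 0.21) and Cacna1g of the T-type calcium channels (16.7 CPM, −1.19 ± 0.14) were lower. Of 17 ionotropic glutamate receptor genes Gria3 was higher, at 1339, 1495 and 1400 CPM (1.35 ± 0.03). Gria1, Grin2d, Grin3a and Grik4 were lower, and the median ratio of the list was −0.34. Gria1, another AMPA receptor subunit gene, was at 490, 510 and 496 CPM (−1.26 ± 0.08), with cluster 10 next at 531, 617 and 508. Gria2 and Gria4 were at 1363 and 1472 CPM with ratios of −0.34 and 0.05, so that the AMPA subunit genes differed among themselves in direction. The GABA receptor list had 3 lower of 14, namely Gabrg3 (17.8, 22.1 and 22.5 CPM, −4.44 ± 0.29), Gabrg1 and the GABA-B subunit gene Gabbr2 (14.5 CPM against 121), and a median ratio of −0.32.

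The list of interneuron transcription factors, which does not hold all such factors, had 40 tested members and a median ratio of −0.43. In this list Esrrg was higher and Sp9 and Tcf4 were lower. Esrrg, which encodes estrogen-related receptor gamma, was at 1334, 1787 and 1696 CPM (2.13 ± 0.28), above cluster 12 at 779, 701 and 502, and was seen in 86.7% of thinned nuclei. Pparg, a nuclear receptor better known from fat cells, was outside the list but among the largest ratios, at 539, 576 and 634 CPM (2.24 ± 0.09). Sp9, a factor of OB interneuron precursors, was at 22.8 CPM against 85.8 (−1.71 ± 0.42), and Tcf4 at 467 CPM against 1364 (−1.54 ± 0.17). Sox5, likewise outside the list, was at 18.3 CPM against 416 and nearly as low in cluster 0 (26.7).

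In the 3 lists of adhesion and guidance genes 4 genes were higher and 11 lower, and the median ratios were −1.01 for cadherins and protocadherins, −0.39 for synaptic adhesion and −0.72 for guidance, beside −0.12 over all genes. Cadherins and protocadherins had no higher gene of 25 tested and 3 lower, Cdh13, Cdh4 and Pcdh18. Cdh13 was at 10.0, 16.2 and 12.5 CPM (−3.66 ± 0.38). The synaptic adhesion list had 2 higher of 36, Tpbg and the neurexin-family gene Cntnap4 (907 CPM, 1.25 ± 0.19), and 3 lower, Cntn5 (−4.36 ± 0.29), Cntnap5b (−3.60 ± 0.46) and Cntnap5a (−2.48 ± 0.66). The guidance list had 2 higher of 47, Sema3c (390, 353 and 465 CPM, 2.34 ± 0.39) and Ntng1 (874, 671 and 831 CPM, 1.84 ± 0.07). Both had cluster 0 next, Sema3c closely so at 322, 286 and 309 CPM, and with the other clusters pooled by their UMIs the ratio of Sema3c was 1.44. Slit1, Slit2, Nrp2, Robo2 and Sema6d were lower, with Slit1 at 0.755 and Slit2 at 2.17 CPM against 19.8 and 32.4. Sema3e was at 691, 509 and 563 CPM, above 6 of the 7 other clusters, with cluster 6 higher still (1079 CPM). Met, the hepatocyte growth factor receptor gene, was at 62.8, 70.7 and 73.1 CPM (2.63 ± 0.23). This stood apart from the 7 other inhibitory clusters, with cluster 12 next at 22.4, 18.9 and 12.4.

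Further genes with large ratios included Akr1c18, a steroid-reducing enzyme gene (59.5 CPM, 2.41 ± 0.14), Lrrc38, an auxiliary subunit gene of large-conductance potassium channels (35.7 CPM, 2.44 ± 0.35), and Rai14 (167 CPM, 2.28 ± 0.16). Plch2 (111 CPM), Fam126a (352 CPM, 1.96 ± 0.17, or 1.25 against the pooled clusters) and the noncoding Gm34623, 2310016D03Rik, 9330158H04Rik and Gm26905 completed the 20 largest at 20 CPM or more. On the lower side Brinp3 (11.7 CPM), Klhl1 (7.86, with a ratio of −4.63, or −3.04 without clusters 10 and 12), Alcam (5.02) and Pde5a (1.41) were also low in cluster 0 (under 20 CPM each or, for Klhl1, 24.8), whereas Mgat4c (43.2, 40.8 and 31.5 CPM) was at 292, 192 and 305 in cluster 0. Nrg3, a neuregulin gene, was at 93.1, 68.4 and 101 CPM in cluster 3 and at a mean of 1835 in the others. Calb2, the calretinin gene and a marker of periglomerular and other interneurons, was at 40.3, 67.9 and 23.7 CPM (−3.31 ± 0.70), and the glial glutamate transporter gene Slc1a3 at 6.35, 5.61 and 4.40 CPM, under the 517 CPM of cluster 7.

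Several higher genes came as overlapping pairs on opposite strands. Among 1940 such pairs of tested genes, both members were higher in 12 and only 1 member in 24. Of the 135 higher genes 44 (32.6%) overlapped a tested gene on the other strand, against 27.0% of all tested genes. Chrm2 (chr6:36388084-36528414, plus strand) and the lincRNA 9330158H04Rik (chr6:36209620-36390191, minus strand) overlap by 2108 bases at their 5′ ends in GENCODE M21, and their RefSeq starts lie 150 bases apart. 9330158H04Rik was at 305, 298 and 278 CPM in cluster 3 (2.01 ± 0.13). As for Chrm2, cluster 6 was next (131 CPM) and cluster 7 last (19.9 CPM), whereas cluster 10 lay above cluster 0 for Chrm2 (535 against 511 CPM) and below it for the lincRNA (65.7 against 103 CPM). Its promoter window, chr6:36388185-36388484 on the minus strand, is shown for comparison with that of Chrm2 above, with which it does not overlap.
9330158H04Rik: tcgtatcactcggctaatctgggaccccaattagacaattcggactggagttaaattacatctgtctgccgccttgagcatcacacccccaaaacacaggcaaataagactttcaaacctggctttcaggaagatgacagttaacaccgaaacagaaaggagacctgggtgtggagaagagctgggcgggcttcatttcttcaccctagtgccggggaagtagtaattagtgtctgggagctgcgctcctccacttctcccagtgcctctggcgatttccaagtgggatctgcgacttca
The other pairs included Galntl6 with Gm26905 (5197 and 748 CPM in cluster 3), Pparg with Gm44079 (583 and 57.3), Vipr2 with Gm20658 (267 and 84.7) and Cntnap4 with Gm45904 (907 and 97.7). The use of strand in counting is not given in the sources used here, and without it reads of such partners cannot be told apart.

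Motifs were searched on both strands in the promoters of the higher genes, of which 99 of 135 matched a RefSeq entry, with 133 windows. The cyclic AMP response element TGACGTCA was in 4 of them (3.01%), those of Clstn2, Ell2, Rap1b and Scg2, beside 3.05% of windows of tested genes and 1.79% of all windows. TATAAA was in 17 (12.8%), beside 7.26% and 13.6%. The estrogen-related receptor element TCAAGGTCA was in 0 of the 133 windows, beside 0.242% of windows of tested genes and 0.423% of all windows. No match says only that these letters are absent from these windows.

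Cluster 0 was the most similar inhibitory cluster. Between them 206 genes (1.6%) had a log2 ratio past 1 in the same direction in each mouse, 75 higher in cluster 3 (0.582%) and 131 lower (1.02%), against 672 genes for cluster 1, 703 for cluster 12 and up to 1078 for cluster 7. Taken over the tested genes, which are no replicates of each other, the mean log2 levels of cluster 3 had a Pearson's r of 0.979 with cluster 0, of 0.933 with cluster 1 and of 0.920 with cluster 12. Of the 75 genes 29 were also in the count against all 7 clusters, among them Tpbg (2.79 ± 0.22 against cluster 0), Kcnh8 (2.65 ± 0.03), Npy (2.58 ± 0.55), Met (2.53 ± 0.04), Bdnf (2.06 ± 0.25), Chrm2 (1.57 ± 0.12), Esrrg (1.48 ± 0.16) and Hrh2 (1.39 ± 0.21). Crhbp had a mean ratio of 1.34 ± 0.36 but did not pass 1 in mouse 3, so that 2 of the 4 label markers were in the count against cluster 0. Syt10 (0.92 ± 0.14), Pparg (0.82 ± 0.14) and Sema3c (0.39 ± 0.17) were shared with cluster 0 to the extent that their ratios stayed below 1. Some genes separated cluster 3 from cluster 0 but not from all inhibitory clusters. Sema3e (1.79 ± 0.21), the GABA-A subunit gene Gabrb2 (1.41 ± 0.16; 182, 210 and 202 CPM against 73.5, 66.6 and 73.7), and the protocadherin genes Pcdh7 (1.14 ± 0.12) and Pcdh15 (1.07 ± 0.03) were of this kind. On the lower side against cluster 0 were Htr1f (−3.80 ± 0.35), Calb2 (−2.74 ± 0.49), Mgat4c (−2.60 ± 0.49), Gabrg3 (−2.57 ± 0.21), Cdh4 (−1.88 ± 0.15), Kcnc2 (−1.79 ± 0.46) and, of the granule cell list, Penk (59.7 CPM) and Camk4 (−1.52 ± 0.19). Pcp4, a calmodulin-binding protein gene, was at 494, 464 and 213 CPM in cluster 3 and at 1302, 1040 and 484 in cluster 0 (−1.24 ± 0.13), with mouse 3 lowest in both.

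**Figure D4:**
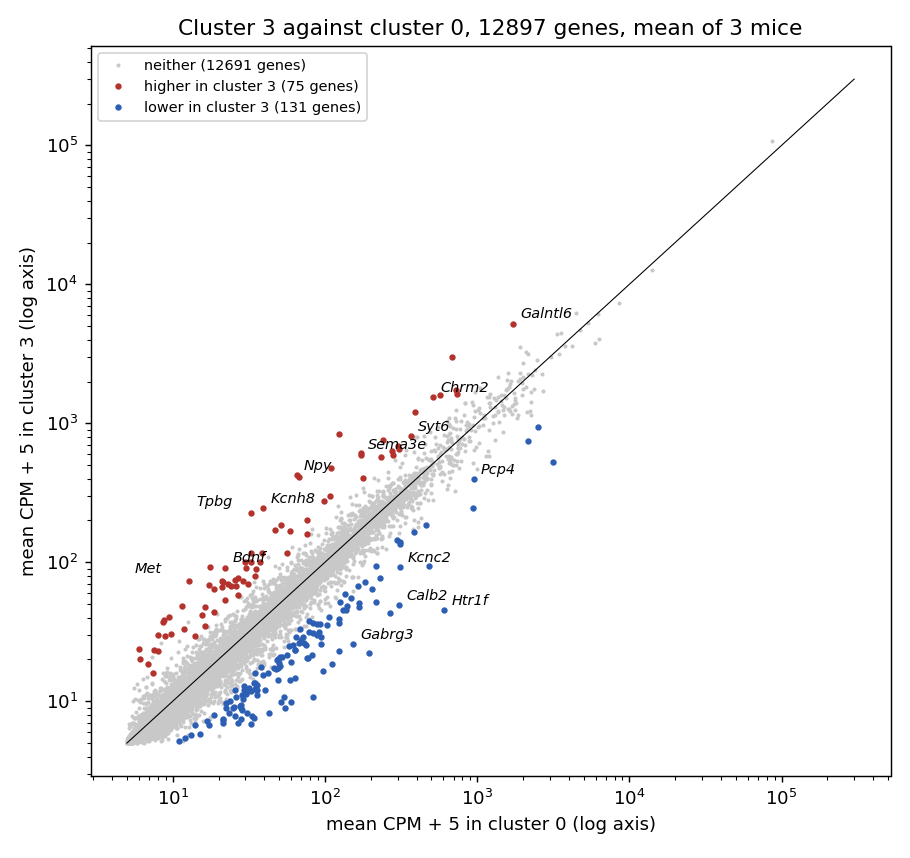
Mean CPM plus 5 over 3 mice in cluster 3 (y axis, log scale) against cluster 0 (x axis, log scale) for 12897 genes, with the line of equality. The 75 genes higher in cluster 3 in each mouse (red) include Tpbg, Npy, Met and Chrm2, and the 131 lower ones (blue) include Htr1f, Calb2 and Gabrg3.

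Nuclei within cluster 3 also varied. The variance over the mean (Fano factor) of thinned counts, which is 1 for pure counting noise, had a median of 1.14 over 4314 genes, taking the lowest of 3 mice for each gene, and exceeded 2 in each mouse for 115 genes. The 15 genes with the highest values were the nuclear RNA Malat1 (25.8 in its lowest mouse), Galntl6 (9.76), Pcdh9 (8.97), Ptprd (8.67), Kcnip4 (7.02), Chrm2 (6.57), Kcnd2 (6.47), Lrp1b (6.30), Etl4 (6.19), Hs6st3 (5.85), Nrxn3 (5.67), Zfp804b (5.51), Pcdh15 (5.48), Astn2 (5.31) and Tenm2 (5.20). Galntl6, Chrm2, Lrp1b and Hs6st3 were at the same time among the 135 higher genes. Npy had Fano factors of 12.2, 5.99 and 5.01, so its UMIs were concentrated in some of the nuclei. Some of the variable genes fell into sets that moved together. Chrm2 correlated with the A-type potassium channel gene Kcnd2 (Pearson's r across nuclei 0.38, 0.42 and 0.47 in mice 1 to 3), with Nrxn3 (0.26, 0.38 and 0.49) and with Lrp1b (0.25, 0.27 and 0.29), and Kcnd2 with Lrp1b (0.46, 0.40 and 0.41). A second set joined Hs6st3 with Astn2 (0.39, 0.45 and 0.40) and Galntl6 with Pcdh15 (0.29, 0.25 and 0.39). Between the sets the values were at or below 0 for most pairs, such as Chrm2 with Astn2 (−0.20, −0.22 and −0.25) and Kcnd2 with Pcdh15 (−0.27, −0.24 and −0.22). Zfp804b was positive with Kcnd2 (0.26, 0.32 and 0.31), but also with Galntl6 (0.11, 0.18 and 0.22) and Hs6st3 (0.16, 0.08 and 0.18). These values describe 439, 1524 and 313 nuclei that share a library within each mouse and were thinned to equal depth.

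**Figure D5:**
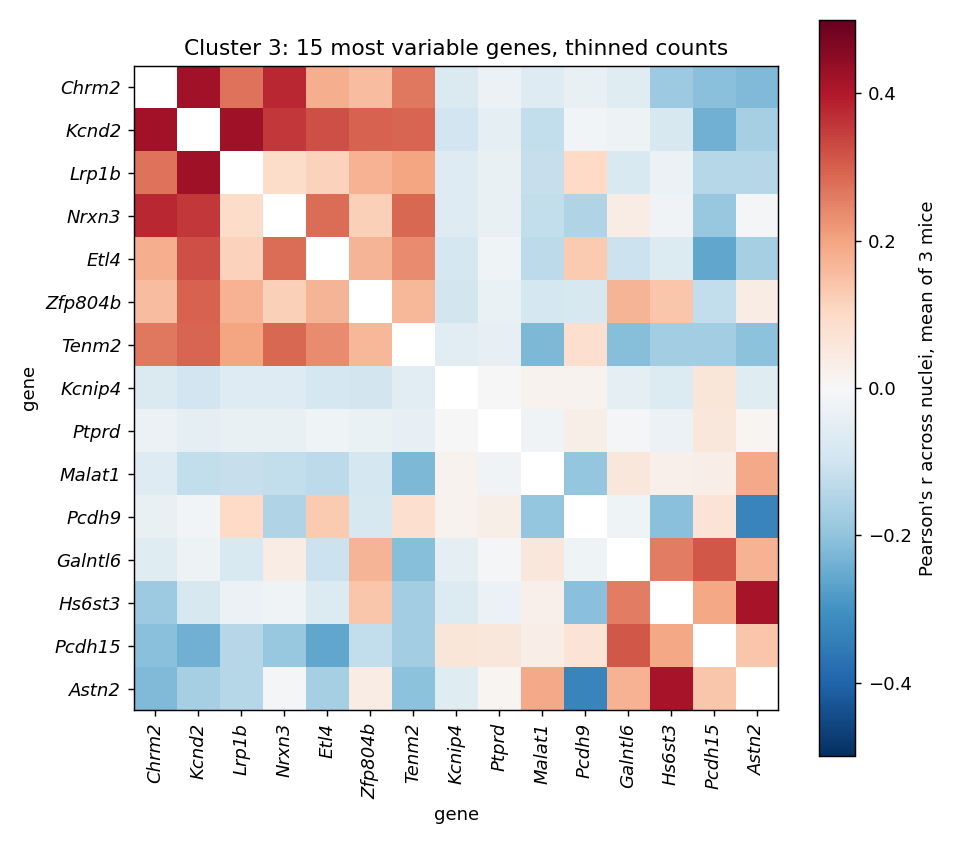
Pearson's r across nuclei of cluster 3 between the 15 most variable genes (both axes), on counts thinned to 3000 UMIs and averaged over 3 mice, with red for positive and blue for negative values. Chrm2, Kcnd2, Lrp1b, Nrxn3, Etl4, Zfp804b and Tenm2 form a red block, and Galntl6, Hs6st3, Pcdh15 and Astn2 a smaller one.

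Levels within cluster 3 were close between mice for most genes. Of 6736 genes at 20 CPM or more, 112 differed over the 3 mice by more than 1 on the log2 scale, and the median range was 0.28. Mouse 1 was highest for 98 of the 112. Npy belonged to them, as did the ribosomal RNA-related Gm42418 (5090, 2389 and 1967 CPM) and AY036118 (1989, 716 and 684 CPM), the actin-binding peptide gene Tmsb4x (357, 251 and 123 CPM) and Nrgn (29.8, 55.1 and 9.29 CPM), of which Nrgn was highest in mouse 2. Ptprd was highest in mouse 3 (276, 218 and 613 CPM). Each mouse is also 1 library, so a mouse and its library cannot be told apart.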

How the data were processed

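Single nuclei from 3 mice were measured with a droplet 3′ kit. Per the file headers, the authors made the deposited UMI count tables with Cell Ranger 3.0.2, and per the labels reads were aligned to mm10 (GRCm38). The annotation and the use of introns and strand are not given in the sources used here. The authors kept nuclei with at least 1000 genes and at most 5 percent mitochondrial UMIs, a percent that is deposited per nucleus, and defined clusters in Seurat after integration of the 3 mice. Cluster numbers were taken from the deposited table, in which 6 other numeric columns were not used. UMI and gene numbers recomputed here equalled the listed ones in every retained nucleus. No doublet caller was run, and doublets were treated only by the gates of the sort. Counts were summed per mouse and cluster into 24 libraries (645037 to 44969722 UMIs). Each mouse is a separate animal and pairs the clusters, so ratios were taken within a mouse. Genes were not given p-values, because the clusters were formed on the same counts. The members, gene lists and rules were chosen with earlier results of these data known. The rule for named genes took the 4 label markers, the 20 largest and 10 lowest ratios among counted genes of at least 20 CPM, the counted members of each list and otherwise its members highest in cluster 3, and the 15 most variable genes. Symbols of 31011 of 31055 genes were placed with GENCODE M21. The alternatives covered scaling, pseudocount, filters, reference clusters, nuclei and mice, and counts from edgeR 4.0.16 and DESeq2 1.42.0, with code in Python 3.11.15 and R 4.3.3. The counting was tested on simulated data. A few members of the lists are not reported here.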

Additional observations from a re-analysis of the deposited data

How the results depend on the processing

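The 135 higher and 289 lower genes depended most on how a gene is counted. Fits of the 24 libraries with an adjusted p under 0.05 and a log2 fold change past 1, which do not ask for separation in each mouse, counted 551 higher and 1173 lower genes with edgeR's quasi-likelihood test, 555 and 1243 with the mouse as replicate block, and 528 and 1230 with DESeq2. These p-values compare groups that were formed on the same counts and are used for the count only. Pooling the other clusters by their UMIs left 81 higher genes, of which 80 were among the 135. Over the other alternatives the counts ran from 125 to 177 and from 239 to 372. Without 1 mouse there were 142 to 157 higher and 330 to 372 lower genes. The 61 counted list members became 52 to 75. Of 341 alternative ratios of 31 named genes 0 changed sign and 53 moved by more than 1 SD, 21 of them with the pooled reference. Leaving out nuclei with 2 or more projection neuron UMIs removed 28.1% of cluster 3, and its share of the remaining nuclei was 9.47%; its share of inhibitory nuclei was 11.1%. Without 1 mouse these shares were 6.93 to 7.41% and 11.1 to 11.8%. Genes at a few CPM rest on few UMIs, and 3 mice limit every spread.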
